A study of Saccharomyces cerevisiae with 14 samples.

Results

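The genes described here are the 40 nuclear genes that encode the NADH dehydrogenases, complexes II, III, IV and V and cytochrome c of Saccharomyces cerevisiae, as the data give ScSef1 binding next to them. They were chosen by function from a fixed gene list, and a peak was counted for a gene when it lay no farther than 2000 bp upstream and 200 bp downstream of its ATG. By this rule 8 of the 40 genes had a peak in at least 1 of the 7 peak lists, against 1245 of all 6002 nuclear protein-coding genes (20.7%), and 32 had none. The windows of the 40 genes held 69 of the 3812 peaks of the 7 lists.

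The study mapped the DNA bound by ScSef1 by chromatin immunoprecipitation and sequencing (ChIP-seq), with 14 libraries in the series. All libraries came from strain W303ScSef1TAPNB1-1, a MATa strain with the alleles his3-11,15 and trp1-1, also ura3-1, ade2-1, leu2-3,112 and can1-100, in which SEF1 carried a TAP tag at its own locus (SEF1-TAP::FRT). An overnight YPD culture was diluted to 0.2 OD600/ml into glucose medium (YPD) or glycerol medium (YPGly), kept for 4.5 h at 30°C, and fixed at an OD of about 1.0 in YPD and about 0.4 in YPGly. Peaks were called for 4 YPD repeats and 3 YPGly repeats, from 1500 and 500 OD600 of cells, so amount of cells and medium cannot be told apart. The strain and the tag are common to both media, and no library of an untagged strain was analysed here.

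Yeast respiration passes electrons from NADH and succinate through ubiquinone, complex III, cytochrome c and complex IV to oxygen, and complex V, the ATP synthase, uses the proton gradient that complexes III and IV build. In place of a proton-pumping complex I, this yeast has single-subunit NADH dehydrogenases, Ndi1 on the matrix side of the inner membrane and Nde1 and Nde2 on the outer side, where they oxidize cytosolic NADH. On glycerol the cells must respire, whereas on glucose most respiratory genes are held at a low level. ScSef1 is a zinc cluster transcription factor, a class of fungal regulators that often bind pairs of CGG triplets.

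The 7 lists held 528, 771, 615 and 610 peaks in YPD repeats 1 to 4 and 520, 373 and 395 in YPGly repeats 1 to 3. The value of a peak is its enrichment, read here from its name as the fold of the ChIP library over the input library of that repeat. As no read counts are listed, its depth is unknown. Overlapping intervals (1 bp or more) were joined into 1066 sites, and a site was called reproducible with a peak in 3 or more repeats of the same medium, which 645 sites were. Over the 203 sites called in all 7 lists, the median enrichment ranged from 2.18 to 2.64 in YPD and from 3.33 to 4.75 in YPGly. Enrichments were therefore compared between media through ranks within a list or after centring. The values quoted below for each list are uncentred, so a gap between the media in them includes this general difference. The share of all shared sites with such a gap is not given here.

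The sequences around the 5 strongest reproducible sites of these genes are shown first, because they hold all 4 exact pattern matches described later and the positions at which every list placed its peak. Each is the plus strand of the R64 genome, 151 bases centred on the site, and the capitals mark the 6 fixed bases of each exact match to CCGN5CGG (CCG, any 5 bases, CGG), which is its own reverse complement.
NDE1 site, chrXIII:557050-557200: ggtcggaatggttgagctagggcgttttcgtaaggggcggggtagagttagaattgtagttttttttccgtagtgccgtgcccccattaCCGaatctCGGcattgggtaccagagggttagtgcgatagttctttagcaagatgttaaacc
COR1 site, chrII:136099-136249: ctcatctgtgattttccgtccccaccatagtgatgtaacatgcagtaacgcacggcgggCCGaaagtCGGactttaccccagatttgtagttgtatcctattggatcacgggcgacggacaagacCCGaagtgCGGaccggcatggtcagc
ATP14 far site, chrXII:723433-723583: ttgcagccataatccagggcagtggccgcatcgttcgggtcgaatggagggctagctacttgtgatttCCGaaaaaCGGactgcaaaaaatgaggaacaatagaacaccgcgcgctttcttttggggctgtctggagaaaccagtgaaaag
ATP14 near site, chrXII:722868-723018: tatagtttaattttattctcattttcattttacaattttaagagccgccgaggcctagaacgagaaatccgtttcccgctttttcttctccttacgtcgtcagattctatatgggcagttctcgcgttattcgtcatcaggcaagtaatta
QCR6 middle site, chrVI:225345-225495: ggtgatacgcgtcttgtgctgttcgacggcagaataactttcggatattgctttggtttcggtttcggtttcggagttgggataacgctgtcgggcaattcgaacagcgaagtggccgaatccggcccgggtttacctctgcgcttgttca

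Of the 40 genes, 6 had a reproducible site (15.0%), against 876 of all 6002 genes (14.6%). They were NDE1, the 3 complex III genes COR1, CYT1 and QCR6, and the complex V genes ATP1 and ATP14. Their windows held 10 reproducible sites, 1 for NDE1, 1 for COR1, 2 for CYT1, 3 for QCR6, 1 for ATP1 and 2 for ATP14. All 6 genes passed in YPD (background 12.3%) and 5 in YPGly (background 8.40%), where ATP1 did not. The share of the 40 genes thus lay within 1 percentage point of the background with both media joined, and was 15.0% in YPD and 12.5% in YPGly. No test of these shares was run.

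By complex, a reproducible site was found for 1 of 3 NADH dehydrogenase genes, 0 of 4 complex II genes, 3 of 9 complex III genes, 0 of 2 cytochrome c genes, 0 of 9 complex IV genes and 2 of 13 complex V genes. Complex III held 6 of the 10 sites. With so few genes in each complex, differences between complexes were not tested. The genes without a peak in any list were NDI1 and NDE2 among the NADH dehydrogenases, all complex II genes (SDH1, SDH2, SDH3 and SDH4), and in complex III RIP1, QCR2, QCR7, QCR8, QCR9 and QCR10. In cytochrome c CYC7 had none, and in complex IV COX4, COX5B, COX6, COX7, COX8, COX9, COX12 and COX13 had none. In complex V ATP2, ATP3, ATP4, ATP5, ATP7, ATP15, ATP16, ATP17, ATP18, ATP19 and ATP20 had none. For these 32 genes the nearest peak of any list lay 1372 to 29715 bp from the ATG, and 5 of them had one within 2500 bp.

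**Figure D1:**
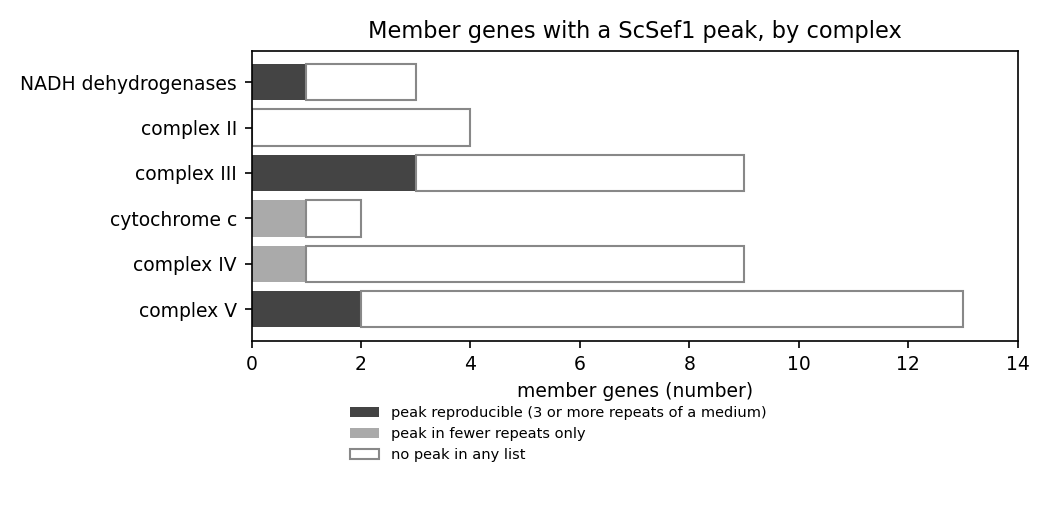
Number of genes in each complex (horizontal axis) with a reproducible peak (dark), with a peak in fewer repeats only (grey) and with no peak in any of the 7 lists (white). Complex III shows 3 dark genes of 9, and complex II and complex IV show none.

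The count was also read list by list. A peak was found in the window of 6, 7, 6 and 7 of the 40 genes in YPD repeats 1 to 4, and of 7, 5 and 5 in YPGly repeats 1 to 3. As shares these were 15.0%, 17.5%, 15.0% and 17.5% in YPD and 17.5%, 12.5% and 12.5% in YPGly. Over all genes the shares were 11.4%, 16.0%, 13.1% and 13.6% in YPD and 9.03% to 11.8% in YPGly. Each list thus gave the 40 genes a share somewhat above its own background, by 1.47 to 5.65 percentage points. These gaps are not 7 separate observations, as NDE1, COR1, CYT1, QCR6 and ATP14 had a peak in every list. CYC1 and COX5A were counted only through peaks found in single lists. With the lists joined, 8 of the 40 genes had a peak, against 20.7% of all genes. No excess is therefore read from these gaps, which were not tested.

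The NDE1 gene (YMR145C, chromosome XIII, minus strand) encodes an external NADH dehydrogenase, as NDE2 does. Its site was centred at 557125, 650 bp upstream of the ATG, outside any coding sequence. It lay in the window of no other gene, whereas 7 of the 10 reproducible sites did. The enrichment there was 85.5, 62.2, 71.5 and 92.2 in YPD repeats 1 to 4. It was 89.4, 66.2 and 74.3 in YPGly repeats 1 to 3. The ranges of the media overlapped, with means of 77.9 ± 13.6 (SD, n = 4) and 76.6 ± 11.8 (SD, n = 3), and NDE1 was the strongest of these sites in every YPD list. The 7 lists placed the peak within 15 bp of each other, from 640 to 655 bp upstream of the ATG.

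The NDE1 peak lay 14 to 29 bp from the middle of its single exact match, CCGAATCTCGG, at chrXIII:557139-557149. The study designed an oligo with which to change this match, and its designed bases are set here against the genome to show which letters were replaced. Both lines are the plus strand of chrXIII:557126-557165, with capitals at the bases that differ.
genome: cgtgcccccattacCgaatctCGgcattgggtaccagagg
ScNDE1pMut-2: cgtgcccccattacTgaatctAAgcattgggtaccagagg
Counted from 1 at the 5′ end of the oligo, the substitutions are C15T, C22A and G23A, with the genome's base first. All fall inside the match and leave its 5 middle bases as they are. The primers of the study for ChIP-qPCR at NDE1 matched the genome without mismatch and enclose 125 bp, chrXIII:557080-557204, which contains the peak positions of all 7 lists. The changed promoter was not part of these libraries.

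Inside the NDE1 coding sequence, 85 to 89 bp downstream of the ATG, weak peaks were called in YPD repeat 2 (2.05), YPD repeat 3 (2.24) and YPGly repeat 2 (2.37). This site at XIII 556390 was called in 2 YPD lists and 1 YPGly list and was not counted as reproducible.

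COR1 (YBL045C, chromosome II, minus strand) encodes a core subunit of complex III. Its site, centred at 136174, lay 658 bp upstream of the COR1 ATG, inside the open reading frame YBL044W and 516 bp upstream of the ATG of ECM13, which is transcribed in the other direction. The enrichment was 76.4, 59.0, 59.5 and 90.4 in YPD repeats 1 to 4. It was 165, 116 and 133 in YPGly repeats 1 to 3. Every YPGly list was above every YPD list. Within a list, the COR1 site can be set against the NDE1 site, since both were measured in the same pair of libraries. In YPD the ratio of COR1 to NDE1 was 0.893, 0.949, 0.832 and 0.980, and in YPGly it was 1.84, 1.75 and 1.79, so COR1 was the weaker of both in each YPD list and the stronger in each YPGly list. The stronger site of the whole gene set thus differed between the media. The window around the COR1 peak holds exact matches at chrII:136158-136168 (CCGAAAGTCGG) and chrII:136224-136234 (CCGAAGTGCGG), and the peaks of the lists lay 5 to 17 bp from the middle of the first and 49 to 61 bp from that of the second.

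**Figure D2:**
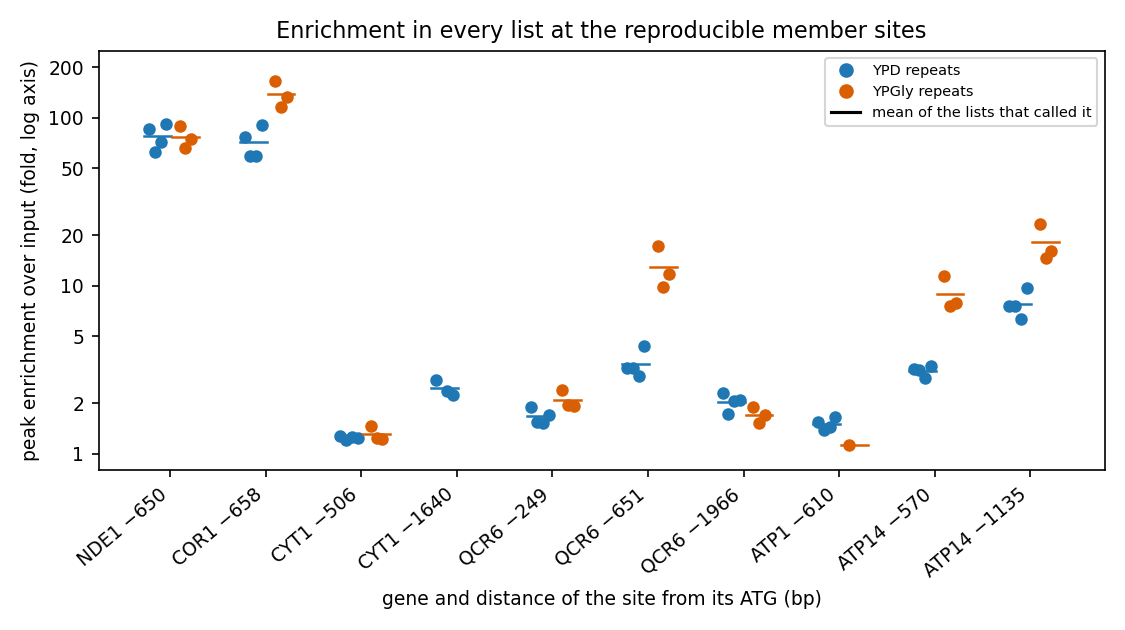
Enrichment over input in every list (vertical log axis, fold) at the 10 reproducible sites, named by gene and distance from the ATG. Points are single repeats of YPD (blue) and YPGly (orange) and short lines their means. The NDE1 points of both media lie in the same range from 62.2 to 92.2, and the YPGly points of COR1 (116 to 165) lie above its YPD points.

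QCR6 (YFR033C, chromosome VI, minus strand), which encodes an acidic subunit of complex III, had 3 reproducible sites. These did not all shift alike between the media. The middle one, centred at 225420 and 651 bp upstream of the ATG, lay inside the coding sequence of PHO4, the transcription factor of the phosphate response. Its enrichment was 3.22, 3.25, 2.92 and 4.40 in YPD repeats 1 to 4. It was 17.2, 9.82 and 11.8 in YPGly repeats 1 to 3. All YPGly values were above all YPD values, and the ratio of the means, 3.75, was the 17th largest of the 203 sites called in all lists. No exact match to CCGN5CGG was found in the 250 bp around it, although its 151 bases hold 11 CGG or CCG triplets.

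The QCR6 site nearest to the ATG, centred at 225018 and 249 bp upstream, was the only one of the 10 reproducible sites with its centre within 500 bp of the ATG of its gene. The enrichment was 1.90, 1.54, 1.53 and 1.70 in the YPD lists. It was 2.41, 1.96 and 1.93 in the YPGly lists, all above the highest YPD value, by 0.0251 at the smallest gap. The far QCR6 site, centred at 226735 and 1966 bp upstream, overlapped a tRNA gene and lay 222 bp upstream of CDC26, a subunit of the anaphase-promoting complex. Its enrichment was 2.29, 1.72, 2.05 and 2.10 in YPD and 1.91, 1.53 and 1.70 in YPGly, with ranges that overlapped. The peak of YPD repeat 4 at this site was 2012 bp from the QCR6 ATG and so just outside the window.

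CYT1 (YOR065W, chromosome XV, plus strand) encodes cytochrome c1, the subunit of complex III that passes electrons to cytochrome c. Its nearer site, centred at 446933, lay 506 bp upstream of the ATG in a promoter that is also in the window of YNG1, a subunit of a histone acetyltransferase complex. It was called in all 7 lists near the lowest enrichments of the lists, at 1.28, 1.21, 1.26 and 1.24 in YPD and 1.46, 1.24 and 1.23 in YPGly. The media overlapped. The farther CYT1 site, centred at 445799 and 1640 bp upstream, lay inside the coding sequence of RPL3, which encodes a protein of the large ribosomal subunit. It was called in YPD repeats 1, 3 and 4, at 2.75, 2.36 and 2.24, and in no YPGly list. YPD repeat 2 had a peak of 2.01 in the same coding sequence at 2059 bp upstream of CYT1, just outside the window.

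In complex V, ATP14 (YLR295C, chromosome XII, minus strand) encodes subunit h of the stator stalk. The stronger of its sites, centred at 723508 and 1135 bp upstream of the ATG, had an enrichment of 7.58, 7.61, 6.34 and 9.64 in YPD repeats 1 to 4. It was 23.5, 14.6 and 16.2 in YPGly repeats 1 to 3. The lowest YPGly value was above the highest YPD value, although the ranks of this site overlapped between the media. This site holds an exact match, CCGAAAAACGG, at chrXII:723501-723511, with the peaks of the lists 2 to 22 bp from its middle. It is nearer to the ATG of YLR297W, which is 546 bp away, than to that of ATP14.

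The nearer ATP14 site, centred at 722943 and 570 bp upstream, lay 35 bp upstream of the ATG of YLR296W on the other strand. Its enrichment was 3.19, 3.15, 2.83 and 3.35 in YPD and 11.4, 7.60 and 7.87 in YPGly. Here too every uncentred YPGly value was above every YPD value, and no exact match was found in its 250 bp.

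ATP1 (YBL099W, chromosome II, plus strand) encodes the alpha subunit of the catalytic head of the ATP synthase. Its site, centred at 36443 and 610 bp upstream of the ATG, overlapped a tRNA gene. The enrichment was 1.55, 1.39, 1.45 and 1.65 in the YPD lists, and in YPGly only repeat 1 had a peak, at 1.13. Sites within 500 bp of a tRNA gene made up 2 of the 10 reproducible sites of these genes, those of ATP1 and the far one of QCR6. Over the whole series they made up 205 of 645 reproducible sites (31.8%), and 177 of the 312 that were reproducible in YPD only (56.7%). What the tRNA genes contribute to the signal at ATP1 and QCR6 was not tested.

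**Figure D3:**
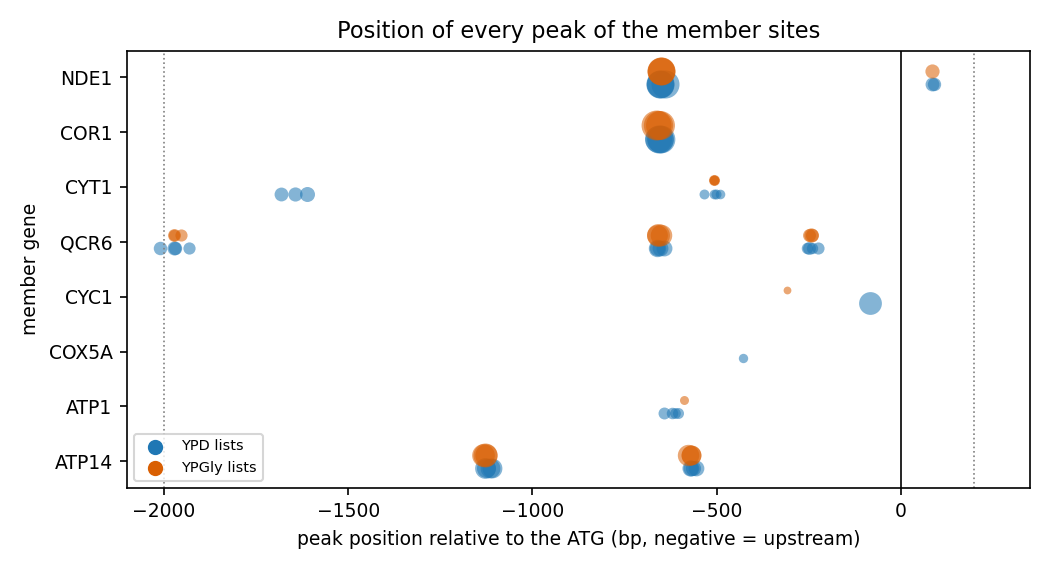
Position of each peak of the sites of 8 genes relative to the ATG (horizontal axis, bp, negative upstream), with 1 row per gene. Blue points are YPD lists, orange points YPGly lists, and point size grows with log2 enrichment. Dotted lines bound the window, 2000 bp upstream and 200 bp downstream. The largest points, of NDE1 and COR1, lie 640 to 664 bp upstream.

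The remaining peaks in the windows came from single lists. CYC1 (YJR048W, chromosome X, plus strand), which encodes the main form of cytochrome c, had a peak in YPD repeat 4 at 526252, 83 bp upstream of the ATG, with an enrichment of 16.7, the 25th highest of the 610 peaks of that list. None of the other 6 lists had a peak there. YPGly repeat 1 had a peak 308 bp upstream of CYC1 with an enrichment of 0.990, the lowest of its 520 peaks. In YPD repeat 4 a further peak of 29.0 stood at 526878, 543 bp downstream of the CYC1 ATG and 214 bp past the end of its coding sequence, outside the window. The nearest gene to this further peak was UTR1, 6 bp away. COX5A (YNL052W, chromosome XIV), which encodes a subunit of complex IV, had a peak only in YPD repeat 2, 428 bp upstream of the ATG and inside the coding sequence of MSG5, at 1.18. Without YPD repeat 2, no complex IV gene had a peak.

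Peaks just outside the window were also listed, since the rule turns on its border. QCR10, of complex III, had a site in all 7 lists at 2207 to 2336 bp upstream of the ATG, with enrichments of 2.47, 1.68, 1.58 and 1.78 in YPD and 1.58, 1.42 and 1.49 in YPGly. For CYC1 the 4 YPD lists had a peak at 2247 to 2303 bp upstream, from 1.47 to 1.82. The members just inside the border were the far QCR6 site, at 1933 to 1974 bp with enrichments of 1.53 to 2.29, and NDE1, at 85 to 89 bp downstream. The window decided the counts at the near end as well. With the upstream border at 500 bp, 2 genes were left, CYT1 and QCR6, against 7.10% of all genes. CYT1 stayed only through the peak of YPD repeat 2 at 490 bp, as the other 6 lists placed theirs at 503 to 535 bp.

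The strength of the 10 sites varied widely. The mean enrichment reached at least 10 in a medium at 4 sites (NDE1, COR1, the middle QCR6 site and the far ATP14 site) and stayed under 2.5 in each medium with calls at 5 sites. The nearer ATP14 site lay between these, at 3.13 ± 0.217 in YPD (SD, n = 4) and 8.95 ± 2.11 (SD, n = 3) in YPGly. The median of the means was 2.79 in YPD over 10 sites and 10.9 in YPGly over 8 sites. Over all reproducible sites the medians were 1.76 in YPD (537 sites) and 2.63 in YPGly (333 sites). Of the 10 sites, 3 lay inside a coding sequence and 7 also lay in the window of another gene.

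The comparison of the media asks whether ScSef1 bound these genes differently in glycerol and glucose. Of the 10 reproducible sites, 8 were reproducible in both media, 2 in YPD only (ATP1 and the far CYT1 site) and 0 in YPGly only. Calls were compared per site by a two-sided Fisher's exact test on the lists with and without a peak. For ATP1 and the far CYT1 site this exact test gave p = 0.143 each, with an adjusted p of 0.401 by the Benjamini-Hochberg method over all 1066 sites. An unadjusted p under 0.05 in the exact test was reached by 0 sites of these genes and by 201 of all 1066 sites (18.9%), and 0 of the 1066 passed after adjustment (smallest adjusted p = 0.152). With every list held to its 373 highest-scoring peaks, the ATP1 peak of YPGly repeat 1 was lost and its calls became 4 of 4 against 0 of 3 (Fisher's exact test, p = 0.0286, adjusted p = 0.123).

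The 8 sites called in all 7 lists were compared by the rank of their enrichment among the 203 shared sites, with rank 1 the highest, by a two-sided exact permutation test over the 35 splits of the lists. The smallest p that 4 lists against 3 allow is 0.0286, and adjusted over 203 sites the smallest p obtained was 0.0523, so 0 of 203 sites (0%) passed. At an unadjusted p under 0.05 there were 111 of the 203 sites, 4 of them among these 8. Results are therefore given by whether the ranks of the media overlapped. Ranks did not overlap for 3 of the 8 sites in the direction of YPGly (31.0% of all 203) and for 2 in the direction of YPD (35% of all 203). With only 8 sites, no difference from all shared sites can be read from these counts.

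The sites that ranked higher in every YPGly list were those of COR1, the middle QCR6 site and the nearer ATP14 site. COR1 held rank 8 in each YPD list and ranks 6 to 7 in the YPGly lists, a mean shift of 1.67 ranks (exact permutation test, p = 0.0286). The middle QCR6 site moved from ranks 55 to 77 in YPD to ranks 36 to 43 in YPGly, a mean shift of 26.1 ranks (exact permutation test, p = 0.0286). The nearer ATP14 site moved from ranks 62 to 78 to ranks 54 to 57, a mean shift of 17.25 ranks (exact permutation test, p = 0.0571).

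The sites that ranked lower in every YPGly list were NDE1 and the far QCR6 site on the tRNA gene. NDE1 held rank 7 in each YPD list and ranks 10 to 12 in YPGly, a mean shift of -4.00 ranks (exact permutation test, p = 0.0286). The far QCR6 site moved from ranks 121 to 145 down to ranks 172 to 176, a mean shift of -44.7 ranks (exact permutation test, p = 0.0286). Ranks overlapped for the near QCR6 site (p = 0.0857), for the far ATP14 site (p = 1.00) and for the near CYT1 site (p = 0.457, exact permutation tests). Without YPGly repeat 3, the only library sequenced as read pairs, the ranks of 6 sites did not overlap in place of 5. With calls required in both remaining YPGly repeats, 5 genes had a reproducible site in YPGly, as before. The count of 6 genes in either medium could not fall, as all 6 passed in YPD. A rank also moves when other sites pass it, so a shift does not by itself give the change of 1 site.

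**Figure D4:**
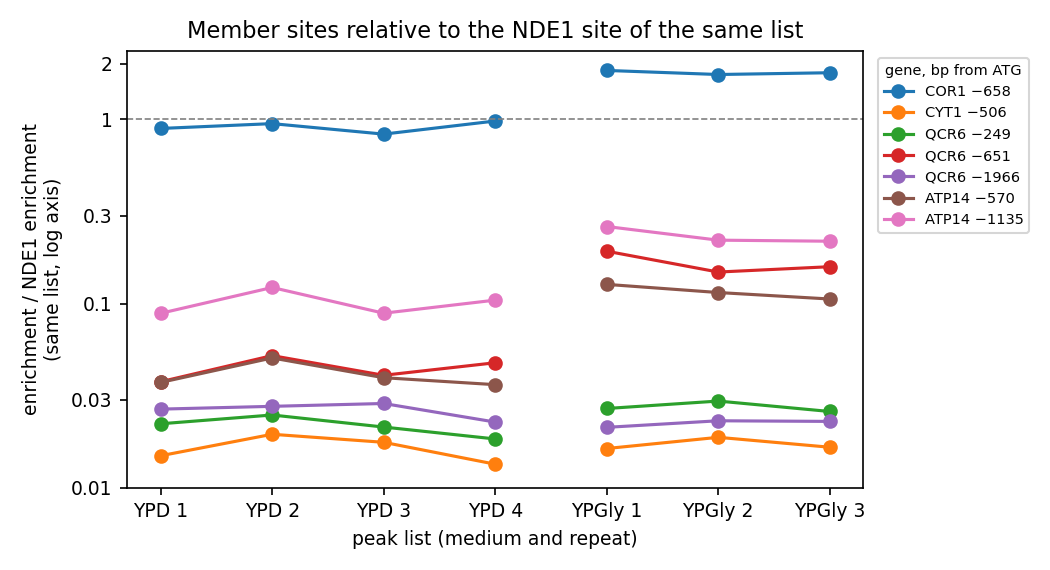
Enrichment of 7 sites divided by that of the NDE1 site of the same list (vertical log axis), for the 4 YPD lists and the 3 YPGly lists on the horizontal axis. The dashed line marks equality with NDE1. COR1 lies at 0.832 to 0.980 in YPD and at 1.75 to 1.84 in YPGly, and the middle QCR6 site rises from 0.0377 to 0.0522 in YPD to 0.148 to 0.193 in YPGly.

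The scale on which the media were compared mattered for some sites. The median ratio of YPGly to YPD enrichment was 1.33 over all 203 shared sites and 1.60 over the 8 sites of these genes. A site with a nearly equal enrichment in both media, such as NDE1 (ratio 0.984), thus had a ratio below that of the typical shared site. Log2 enrichments were therefore also centred in each list and fitted with limma, in which the smallest p is not bound by the number of splits. Centred on the median log2 ratio of the shared sites, a centring chosen after seeing the data, 7 of the 8 sites passed an adjusted p of 0.05, with 4 higher in YPGly (38.9% of the 203) and 3 higher in YPD (36.5%). Centred on the median of each list, all 8 passed, with 4 higher in YPGly (29.6%) and 4 higher in YPD (53.2%).

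On the first of these scales the log2 difference of YPGly from YPD was 1.45 (SE 0.113) for the middle QCR6 site, 1.06 (SE 0.0944) for the nearer and 0.77 (SE 0.107) for the far ATP14 site, and 0.53 (SE 0.0997) for COR1. It was -0.68 (SE 0.0921) for the far QCR6 site, -0.45 (SE 0.0923) for NDE1 and -0.36 (SE 0.0969) for the near CYT1 site. Centred on the median of each list, it was 1.19 for the middle QCR6 site, 0.79 for the nearer ATP14 site, 0.50 for the far ATP14 site and 0.26 for COR1. On that scale it was -0.95 for the far QCR6 site, -0.72 for NDE1 and -0.63 for the near CYT1 site. The near QCR6 site is the exception in direction. Its enrichment and its ranks were higher in YPGly on average, while the centred difference was -0.11 (SE 0.0920) and -0.37 (SE 0.0951) with the respective centrings.

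The pattern CCGN5CGG was searched as letters in the 250 bp around each site, on both strands at once since it reads the same on each. The paper found this spacing of CGG triplets by motif discovery in the most enriched YPGly peaks of these same libraries. Matches at strong sites are therefore not independent of how the pattern was found. It was found at 3 of the 10 reproducible sites (NDE1, COR1 and the far ATP14 site), against 61 of all 645 reproducible sites (9.46%) and 41 of the 203 sites called in all lists (20.2%). These 3 sites were 3 of the 4 that reached an enrichment of 10, and the fourth, the middle QCR6 site, had a match only when 1 mismatch was allowed. With 1 mismatch in the 6 fixed bases, 6 of the 10 sites had a match, and so did 325 of 645 sites (50.4%). In the 1000 bp upstream of the ATG, the pattern was present at NDE1 and COR1, 2 of the 40 genes (5.00%), against 244 of 6002 genes (4.07%). None of the 32 genes without a peak had it there.

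Genes around the respiratory chain were counted from lists of related functions. A reproducible site was found for 10 of 72 such genes (13.9%), again against 14.6% of all genes. Among 48 assembly factors there were 6 (SDH7, MZM1, CYT2, COX11, COA2 and RCF2), among 11 genes of ubiquinone synthesis 0, among 4 inhibitors and dimer factors of the ATP synthase 0, and among 3 paralogs of complex II subunits 1 (YJL045W). Among 6 other enzymes, listed for their link to ubiquinone or cytochrome c, there were 3 (DLD1, CYB2 and URA1).

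DLD1, the mitochondrial D-lactate dehydrogenase, had a site on chromosome IV, 308 bp upstream of its ATG and slightly nearer to that of PAR32. The enrichment was 1.37 ± 0.157 (SD, n = 4) in YPD against 4.43 ± 1.07 (SD, n = 3) in YPGly. The ranks of this site did not overlap (exact permutation test, p = 0.0286, adjusted p = 0.0523). CYB2, the L-lactate dehydrogenase, had a site in YPD only, 1579 bp upstream and nearer to YML054C-A and SUR7, at 1.52 ± 0.148 (SD, n = 3). URA1, the dihydroorotate dehydrogenase of pyrimidine synthesis, which in this yeast passes its electrons to fumarate rather than to the respiratory chain, had a site 197 bp upstream at 1.19 ± 0.0169 in YPD (SD, n = 3) and at 1.34 ± 0.0815 in the 2 YPGly lists that called it (SD, n = 2). CYT2, which attaches heme to cytochrome c1, had a site 952 bp upstream that is nearer to MDH1, with 1.55 ± 0.151 (SD, n = 3) in YPD against 9.11 ± 2.95 (SD, n = 3) in YPGly. MZM1, needed for the insertion of the Rieske protein into complex III, had a site 1675 bp upstream with 4.45 ± 0.790 (SD, n = 4) in YPD against 6.23 ± 1.19 (SD, n = 3) in YPGly. That site lies nearer to PKH1 and IZH1, and its ranks were higher in every YPD list. YJL045W had 2 sites in YPD only. The site of SDH7 was also in YPD only, at 2.00 ± 0.150 (SD, n = 3), and nearer to SMT3 and GNP1. COX11 had a site only in YPGly at 1.57 ± 0.0184 (SD, n = 3), 1912 bp upstream and nearer to ODC1. COA2 had 1.55 ± 0.0949 in YPD and 1.57 ± 0.246 in YPGly (SD, n = 3 each). RCF2 had a site 338 bp upstream in all lists, with 1.70 ± 0.148 (SD, n = 4) in YPD against 2.25 ± 0.299 (SD, n = 3) in YPGly. Another RCF2 site, 1945 bp upstream in YPGly only, was nearer to TIM23 and ACC1.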

How the data were processed

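ScSef1-TAP ChIP-seq libraries from YPD (4 repeats) and YPGly (3 repeats) had each been sequenced with an input library. Per the labels, the submitters' processing notes name bcl2fastq, FastQC 0.11.8, Trimmomatic 0.36, Bowtie2 2.3.3, DiffBind 2.10.0 and deepTools, and the R64 genome. The peak caller is not given in the sources used here. YPGly repeat 3 was sequenced apart from the rest as read pairs, which were merged, and DNA of a YPD repeat came from parts that were precipitated separately and then pooled. The authors called peaks in each repeat against its input, without pooling. In the deposited lists the score of a peak is the caller's statistic, the FDR (a q-value) is its false discovery rate, given as -log10 in the interval files, and the enrichment is a fold ratio of ChIP to input with a lower bound. These values were not normalized between lists and no depth is given. The repeats are described as biological replicates of the same tagged strain. The lists were filed under input samples or samples whose title and description differ, and medium and repeat number were taken from the titles.

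Intervals were merged with an overlap of at least 1 bp, and genes came from the RefSeq R64 annotation (6002 nuclear protein-coding genes). All 40 member names and 72 of 74 related names were matched, some by alias. Members with a peak are named with their values in every list, and related genes where they had a reproducible site. The members and lists were chosen with earlier results of these data known. Ranks, exact permutation tests and Fisher's exact tests used Python 3.11.15 with scipy 1.17.1, and limma 3.58.1 ran in R 4.3.3. The threshold was 0.05 after Benjamini-Hochberg adjustment over all sites of a comparison. Merging, assignment, tests and pattern search were tested on simulated data.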

Additional observations from a re-analysis of the deposited data

Results flagged for a closer look

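In YPD repeat 4 a peak with an enrichment of 29.0 stood 543 bp downstream of the CYC1 ATG and 6 bp from UTR1. This peak lay outside the windows used in the report. It drew attention as a strong signal in peaks that no comparison used, with no peak in the other 6 lists at that position. Of 21 peaks that YPD repeat 4 alone called, 4 had an enrichment of at least 10. Besides this one, they were the CYC1 peak 83 bp upstream of the ATG (16.7), a peak in HIS3 (50.7), an enzyme of histidine synthesis and in this strain the allele his3-11,15, and a peak 496 bp from HHF1, a histone H4 gene (28.0). None of the single-list peaks of the other 6 lists reached 10, and the highest of them was 6.46. Both of these peaks beside CYC1 therefore rest on YPD repeat 4 alone, and the source of these 4 peaks was not tested. Without that list, 8 of the 40 genes still had a peak in at least 1 list, CYC1 then by the peak of YPGly repeat 1 alone, and 6 still had a reproducible site.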

How the results depend on the processing

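The number of genes with a reproducible site stayed at 5 or 6 in either medium, 5 or 6 in YPD and 4 or 5 in YPGly with a reciprocal overlap of 50%, calls in 2 or in every repeat, an enrichment of at least 2, lists of equal length, a window of 1000 bp, assignment to the nearest ATG on each strand, and each repeat left out in turn. The assignment per strand kept COR1, both ATP14 sites and the near CYT1 site, which lie nearer to an ATG on the other strand. Assignment to the nearest ATG of either strand was not run. With a YPGly repeat left out, calls in both other YPGly repeats were required, and the count in either medium could not fall, as all 6 genes passed in YPD. At an enrichment of at least 2, the shares were 12.5%, 12.5% and 10.0% of the 40 genes against 5.73%, 4.15% and 4.57% of all genes (either medium, YPD, YPGly), a wider gap than without that limit. With a window of 500 bp upstream the number of genes was 2 in either medium, 2 in YPD and 2 in YPGly, because fewer sites lie in that window. The count of sites that passed the rank test after adjustment was 0 of 8, and 0 with each repeat left out, where 3 lists against 3 or 4 against 2 could not pass. Over peaks with an enrichment of at least 2 it was 3 of 5 (COR1, the middle QCR6 site and NDE1) and 58 of all 98 sites ranked, with an adjusted p of 0.0483 in the exact permutation test. It was 8 with limma on list-centred values and 7 with limma centred on the median log2 ratio, an alternative chosen after seeing the data, as was leaving out repeats for the count of genes with any peak. The number of sites with ranks that did not overlap was 5 of 8, with 5 to 6 of 8 when a repeat was left out. At an enrichment of at least 2 it was 4 of the 5 sites ranked. For the near QCR6 site, limma reversed the rank shift of 17.6 to -0.37 and -0.11 (log2) with these centrings. Ranked by the score, the near CYT1 site moved by 2.25 ranks in place of -2.17, the nearer ATP14 site by 35.5 in place of 17.25 (exact permutation test, p = 0.0286) and the far QCR6 site by -31.75 in place of -44.7 (exact permutation test, p = 0.0857). The shift of the far ATP14 site was 0.25, from -1.67 to 1.33 with a repeat left out. Calls differed at 1 site (ATP1) in lists of equal length, in place of 0. With 1 mismatch, 6 sites in place of 3 held the pattern. The cause of these changes was not tested where none is given.

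With the repeat number as a replicate block (limma, list-centred, repeats 1 to 3) 8 sites passed, among them the near QCR6 site at -0.41 (log2). The numbers are not known to pair the cultures, and the deviations of same-numbered lists correlated at -0.33, -0.28 and -0.004 over 203 sites. Without read counts, no counting error can be given, and a site absent from a list was not detectable there rather than absent.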
